A study of Mus musculus with 6 samples.

Results

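Ell2, Ccnt1 and Aff4, which encode an elongation factor, a cyclin of P-TEFb and the scaffold of the super elongation complex, rose 8.56-fold, 2.31-fold and 2.07-fold in macrophages within 1 h of LPS, after TMM scaling of the libraries. Cdk9, the kinase subunit of P-TEFb, Ccnt2, the other cyclin T gene, and Mepce, which encodes the capping enzyme of 7SK RNA, fell. The genes described here are the 9 members Rn7sk, Hexim1, Larp7, Mepce, Cdk9, Ccnt1, Ccnt2, Aff4 and Ell2, chosen by name for their known part in the control of transcription elongation, out of 55335 genes in the deposited count table. All 9 passed the filter on low counts, which kept 15687 genes.

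RNA polymerase II pauses shortly after it starts on many genes, and P-TEFb, made of CDK9 and cyclin T1 or T2, releases it by phosphorylating the polymerase and the factors that hold it. Much of the P-TEFb in a cell is kept inactive in a particle in which the noncoding RNA 7SK, capped by MEPCE and bound at its 3′ end by LARP7, holds HEXIM1 against the kinase. Active P-TEFb joins the super elongation complex, which AFF4 scaffolds and which contains an ELL protein, and in macrophages release of paused polymerase is a known step in the induction of inflammatory genes.

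The data were RNA-seq counts from 6 libraries of total RNA from bone marrow derived macrophages (BMDMs) of C57BL/6 mice, wild type (WT) by the library names, grown from marrow for 6 days in medium with L929-conditioned supernatant. The 3 PBS libraries came from cells given the vehicle for 1 h, and the 3 LPS libraries from cells given lipopolysaccharide, a bacterial ligand of TLR4, for 1 h. The labels give no age, and nothing in them says whether the replicates came from separate mice, so the p-values measure the spread between these libraries, which may be technical.

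Library totals ranged from 37787611 to 41516330 counts. Levels are given as normalized CPM, the usual depth-scaled count divided further by the TMM factor of the library, and 3 counts, taken as the floor, corresponded to 0.0630 to 0.0919 of these units, a limit that covers counting error only. Tnf, which LPS induces, had 872 to 1007 counts in PBS and 75054 to 78981 counts in LPS libraries. The 8 macrophage markers were all above 3 counts and summed to between 29946 and 31229 normalized CPM in PBS and between 35887 and 36245 in LPS libraries. Among them Cd14, which LPS is known to induce, went from a mean of 398 to 3623 normalized CPM, Fcgr1 fell (log2 fold change -0.48; edgeR adjusted p = 2.62e-10) and Mertk did not pass the test (-0.04; edgeR adjusted p = 0.294). The 6 neutrophil markers summed to between 33.6 and 35.8 normalized CPM in PBS and between 44.3 and 46.2 in LPS libraries, with 1 of them at most at 3 counts in every library. The 4 stromal markers summed to between 8.83 and 9.88 in PBS and between 9.78 and 12.1 in LPS libraries. The T cell markers stayed at or below 0.558, the B cell markers at or below 3.40, and the erythroid markers at or below 0.268 normalized CPM, with 1 of the 3 erythroid markers at 0 throughout. The part of these markers in the changes below was not tested. In bulk RNA, fewer cells that express a gene and less of its RNA per cell cannot be told apart.

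The scaling between libraries bears on every change given below. The mean TMM factor was 1.15 in PBS and 0.869 in LPS libraries. Scaling by library size alone moved the median log2 fold change of all tested genes by -0.40, and upper quartile scaling moved it by -0.14. Of the genes that passed an adjusted p of 0.05 and moved by more than 1 on the log2 scale, 50.4% rose with TMM. This share was 42.6% with upper quartile scaling and 29.0% with library size alone.

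The RNA at the centre of this system is shown first, because Rn7sk was by far the highest member and because part of it is shared with other annotated genes. Rn7sk lies at chr9:78175303-78175633 of GRCm38 on the minus strand, as a noncoding gene of 1 exon and 331 bases in GENCODE M21. Its first 120 bases are printed 5′ to 3′ with every GATC in capitals, the letters that recur in the known HEXIM-binding part near the 5′ end of 7SK. GATC occurred 3 times in the whole RNA, at bases 13 to 16, 42 to 45 and 64 to 67.
Rn7sk bases 1 to 120: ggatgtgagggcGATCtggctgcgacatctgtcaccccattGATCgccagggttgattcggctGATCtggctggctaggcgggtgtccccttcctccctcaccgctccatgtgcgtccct

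Rn7sk, the RNA on which the inhibitory particle is built, had 15996, 16283 and 16158 normalized CPM in PBS replicates 1 to 3. In LPS replicates 1 to 3 it had 22256, 26242 and 22499. Every LPS library was above every PBS library, and LPS replicate 2 stood above the other LPS libraries. The means were 16146 ± 144 in PBS and 23666 ± 2235 in LPS (SD, n = 3), a log2 fold change of 0.55 (SE 0.04) with an adjusted p of 4.01e-09 (edgeR's quasi-likelihood test, adjusted after Benjamini and Hochberg across the genes tested). Without LPS replicate 2 the log2 fold change was 0.47. With library size alone it was 0.15 (edgeR adjusted p = 0.00457), so the size of the rise depended on the scaling.

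Before scaling, the Rn7sk counts of the groups overlapped, with 735645 to 761645 in PBS and 746906 to 856523 in LPS libraries. As a share of each library's total they did not, at 1.83% to 1.88% in PBS and 1.94% to 2.27% in LPS libraries. Rn7sk had the second highest count of any gene in 5 libraries and the highest in LPS replicate 2.

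Reads from copies of 7SK limit this value. At least 80% identity over at least 200 bases of Rn7sk was found in 30 other annotated genes, all of them noncoding, of which 8 had any count and 3 passed the filter. Gm24447, identical to Rn7sk over 241 bases, had 2252, 2734 and 2110 counts in PBS and 2506, 4059 and 2145 in LPS libraries. The log2 fold change of Gm24447 was 0.77 (edgeR adjusted p = 4.71e-04), with the highest value in LPS replicate 2, the library in which Rn7sk was highest, although the groups overlapped in counts. Gm26315, 99.6% identical over 238 bases, had a log2 fold change of -0.92 (edgeR adjusted p = 0.0281), and Gm26035, 96.1% identical, one of -0.07 (edgeR adjusted p = 0.748). All 30 copies together held 2583 to 4637 counts per library, against at least 735645 for Rn7sk. How the counting treated reads that map to several places is not given in the sources used here, so reads of these genes and of Rn7sk may be split between them.

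Hexim1, the inhibitor of the kinase within the 7SK particle, is a gene of 1 exon at chr11:103116231-103119725 on the plus strand. It had 54.2, 56.0 and 54.2 normalized CPM in PBS replicates 1 to 3. In LPS replicates 1 to 3 it had 71.0, 75.3 and 70.3, all above the PBS libraries. The log2 fold change was 0.40 (SE 0.04; edgeR adjusted p = 5.39e-08) with TMM, but -0.0069 (edgeR adjusted p = 0.872) with library size alone. Its raw counts were 2499 to 2580 in PBS and 2382 to 2457 in LPS libraries, lower in every LPS library, so the rise of Hexim1 was one relative to the typical gene.

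Larp7, which binds and stabilises the 3′ end of 7SK, lies at chr3:127536714-127553349 on the minus strand. It had 15.4, 14.8 and 15.2 normalized CPM in PBS and 18.7, 17.4 and 18.4 in LPS replicates 1 to 3. The groups did not overlap, and the gap between them was small. The log2 fold change was 0.26 (SE 0.06; edgeR adjusted p = 6.49e-04) with TMM, 0.12 (edgeR adjusted p = 0.0747) with upper quartile scaling and -0.14 (edgeR adjusted p = 0.0339) with library size alone, so neither the call nor the direction held under every scaling.

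Mepce, the methyltransferase that caps the 5′ end of 7SK, lies at chr5:137781906-137787655 on the minus strand. It had 22.3, 24.0 and 23.7 normalized CPM in PBS and 13.6, 11.5 and 10.7 in LPS replicates 1 to 3. All LPS libraries were below all PBS libraries, with LPS replicate 1 the nearest to them. The PBS mean was 1.96-fold that of LPS, a log2 fold change of -0.97 (SE 0.07; edgeR adjusted p = 1.73e-09). Mepce fell under each of the 3 scalings, by 1.11 on the log2 scale with upper quartile scaling and by 1.37 with library size alone. It missed a fold criterion of 1 on the log2 scale by little, and passed it without LPS replicate 1 (-1.08) and without PBS replicate 1 (-1.001).

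The 3 protein genes of the 7SK particle thus did not move as one. Hexim1 and Larp7 were higher in LPS relative to the typical gene, and Mepce, the capping enzyme, was lower.

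Cdk9, the kinase that phosphorylates the polymerase and the pausing factors, lies at chr2:32705784-32713076 on the minus strand. It had 87.9, 89.8 and 85.7 normalized CPM in PBS and 63.1, 65.9 and 64.4 in LPS replicates 1 to 3. The lowest PBS library stood well above the highest LPS library. With a PBS mean 1.36-fold that of LPS, the log2 fold change was -0.45 (SE 0.04; edgeR adjusted p = 4.38e-09), and Cdk9 fell under every scaling. The microRNA genes Mir2861 and Mir3960, which share 82 and 73 bases of exon with Cdk9 on its strand, had 0 counts in all libraries. How the counting treated reads that overlap several genes is not given in the sources used here. These 0 counts therefore do not show that no reads fell on the shared bases.

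Ccnt1, which encodes cyclin T1, the main cyclin partner of CDK9, lies at chr15:98538689-98570923 on the minus strand. It had 65.9, 65.9 and 67.8 normalized CPM in PBS replicates 1 to 3. In LPS replicates 1 to 3 it had 153.7, 149.4 and 157.2, more than every PBS library by a wide margin. The means were 66.5 ± 1.04 and 153.4 ± 3.91 (SD, n = 3), a 2.31-fold rise with a log2 fold change of 1.21 (SE 0.03; edgeR adjusted p = 1.03e-15). The log2 fold change was 1.06 with upper quartile scaling and 0.80 with library size alone, so Ccnt1 rose under each but passed the fold criterion in only the first of these.

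The antisense gene 9330020H09Rik shares 695 bases, or 7.59%, of the Ccnt1 exons. It had 39 to 58 counts in PBS and 62 to 73 in LPS libraries, against 2979 counts or more for Ccnt1. The library kit keeps strand, but the strand setting of the counting is not given in the sources used here, so antisense reads could not be told apart.

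Ccnt2, which encodes cyclin T2, the alternative partner of CDK9, lies at chr1:127774164-127808061 on the plus strand. It had 74.1, 76.0 and 79.5 normalized CPM in PBS and 65.0, 61.2 and 63.0 in LPS replicates 1 to 3. The groups did not overlap, and the direction was opposite to that of Ccnt1. The log2 fold change was -0.28 (SE 0.04; edgeR adjusted p = 5.62e-06), and it stayed below 0 under every scaling, at -0.42 with upper quartile scaling and -0.68 with library size alone.

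Aff4, the scaffold that brings P-TEFb and ELL proteins together in the super elongation complex, spans 70998 bases at chr11:53350833-53421830 on the plus strand. It had 186.6, 181.1 and 190.9 normalized CPM in PBS replicates 1 to 3. In LPS replicates 1 to 3 it had 390.1, 369.1 and 399.6, with no overlap. The rise was 2.07-fold, a log2 fold change of 1.05 (SE 0.04; edgeR adjusted p = 1.64e-14). The log2 fold change was 0.91 with upper quartile scaling and 0.65 with library size alone, and edgeR's test of whether a change exceeds 1 on the log2 scale gave an adjusted p of 0.15, so Aff4 rose while a rise above 2-fold was not shown.

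Ell2, an elongation factor of the super elongation complex that raises the rate of the polymerase, spans 65608 bases at chr13:75706757-75772364 on the plus strand. It had 43.4, 44.9 and 47.3 normalized CPM in PBS replicates 1 to 3. In LPS replicates 1 to 3 it had 388.3, 371.9 and 400.6. The LPS libraries lay far above the PBS libraries and near each other, and the change was the largest among the members. The means were 45.2 ± 1.95 and 386.9 ± 14.4 (SD, n = 3), an 8.56-fold rise with a log2 fold change of 3.10 (SE 0.04; edgeR adjusted p = 8.82e-21). Ell2 ranked 470 of the 15687 tested genes by log2 fold change, and its log2 fold change was 2.69 with library size alone.

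A sense intronic gene within Ell2, Gm48302, which shares no exon base with it, was looked at after its values were seen. It had 86, 100 and 98 counts in PBS and 994, 826 and 1032 in LPS libraries, a log2 fold change of 3.80 (edgeR adjusted p = 1.51e-16). The antisense gene 1700037F03Rik, which shares 94 bases of exon with Ell2, had at most 10 counts in any library.

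**Figure D1:**
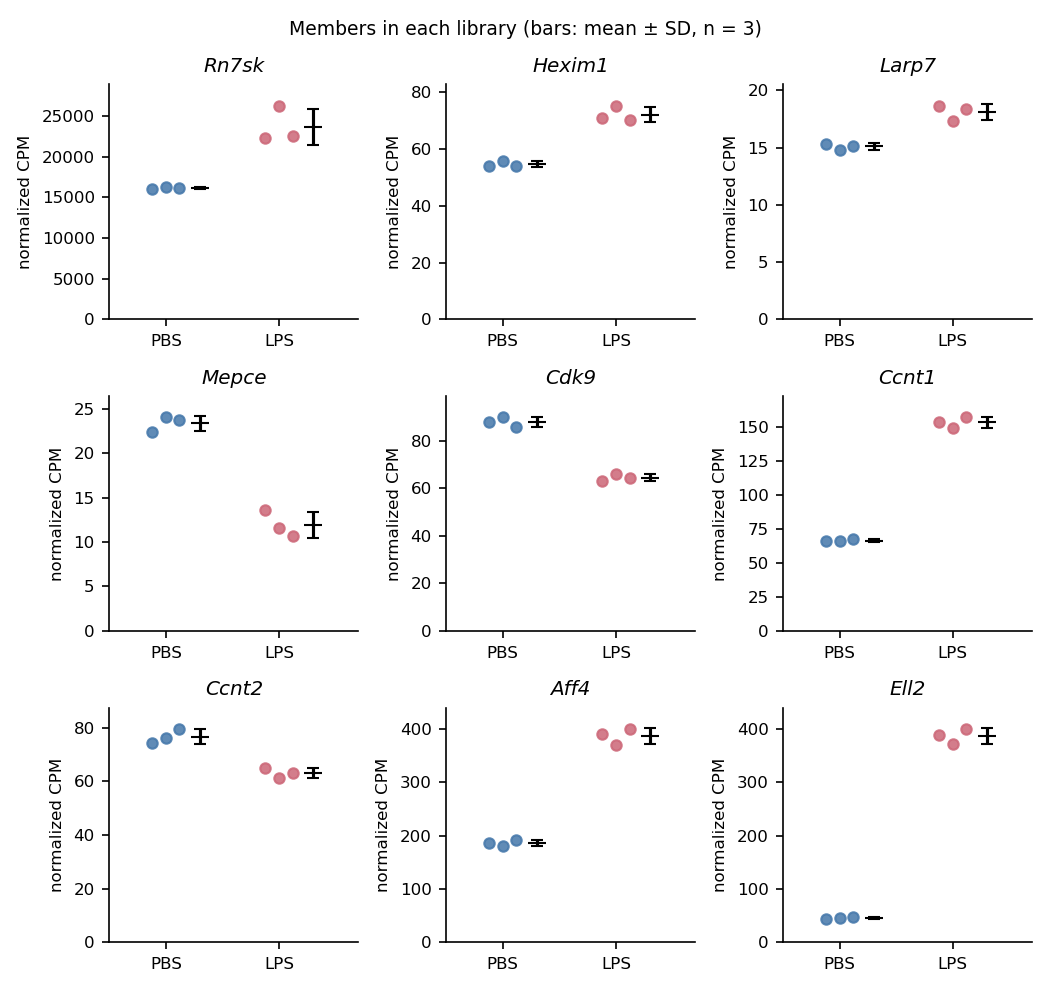
Normalized CPM (vertical axes from 0 and separate for each gene) of the 9 members in 3 PBS (blue) and 3 LPS (red) libraries, replicates 1 to 3 from left to right, with the mean ± SD beside the points. The groups do not overlap for any member, and Ell2 goes from between 43.4 and 47.3 to between 371.9 and 400.6.

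Over the members together, 9 of 9 had an adjusted p under 0.05 in edgeR's quasi-likelihood test, 6 higher and 3 lower in LPS, where 67.7% of all tested genes were called. The groups did not overlap for 9 of 9 members, against 70.5% of all tested genes (33.9% higher and 36.6% lower in LPS). With the added criterion of a log2 fold change above 1, which the study used, 3 members rose (Ccnt1, Aff4 and Ell2), where 10.5% of tested genes rose and 20.9% changed in either direction. By the same criteria 0 members fell in edgeR, DESeq2 and limma voom, where edgeR called 10.4% of tested genes as lower. The 3 members lower in LPS (Mepce, Cdk9 and Ccnt2) passed an adjusted p of 0.05 in edgeR and missed only the fold criterion. By adjusted p alone 34.9% of tested genes were lower. The median log2 fold change of the members was 0.40, against -0.01 over all tested genes.

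**Figure D2:**
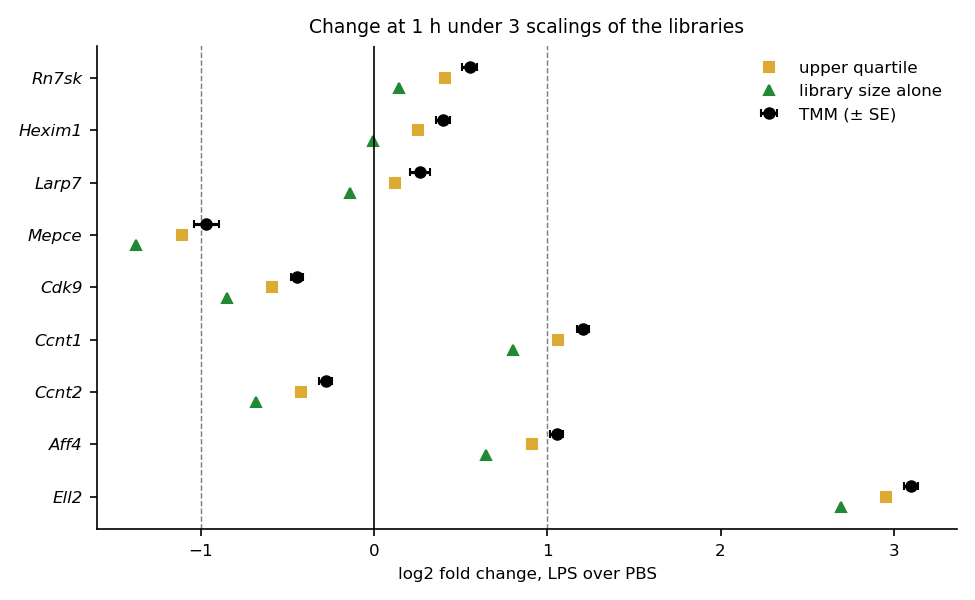
Log2 fold change of LPS over PBS (horizontal axis) of each member under TMM scaling (black points with ± SE, n = 3 and 3), upper quartile scaling (squares) and library size alone (triangles), with dashed lines at 1 and -1. The other scalings shift every member to the left by a like amount, which takes Hexim1 from 0.40 to -0.0069 and Larp7 from 0.26 to -0.14 with library size alone.

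Ratios of member counts within a library do not depend on the scaling between libraries, and 5 were compared by an exact two-sided permutation test, whose smallest possible p with 3 libraries against 3 is 0.1. All 5 reached that value and no lower (exact permutation p = 0.1, also 0.1 after Benjamini-Hochberg adjustment over the 5), and in all 5 the groups did not overlap.

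The ratio of Hexim1 to Ccnt1 counts, an inhibitor of P-TEFb to its cyclin, was 0.822, 0.849 and 0.799 in PBS and 0.462, 0.504 and 0.447 in LPS replicates 1 to 3. It was 1.75-fold lower in LPS, a log2 difference of -0.81. The ratio of Ccnt1 to Ccnt2 counts was 0.890, 0.868 and 0.852 in PBS and 2.37, 2.44 and 2.50 in LPS replicates. Every PBS library thus held fewer counts of Ccnt1 than of Ccnt2 and every LPS library more, a 2.80-fold shift between the cyclin T genes. Whether Ccnt1 was below Ccnt2 in PBS depends on the length used. Per kb of all exons it was above (7.27 against 6.20), and per kb of the longest transcript below.

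The ratio of Ell2 to Aff4 counts was 0.233, 0.248 and 0.248 in PBS and 0.995, 1.01 and 1.00 in LPS replicates 1 to 3. It was 4.13-fold higher in LPS, since Ell2 rose further than Aff4, its partner in the super elongation complex. The ratio of Larp7 to Mepce counts went from 0.687, 0.617 and 0.641 in PBS to 1.37, 1.51 and 1.72 in LPS replicates, which is 2.36-fold. These proteins bind opposite ends of 7SK, and every PBS library held fewer counts of Larp7 than of Mepce and every LPS library more. Per kb of exon the ranges of Larp7 and Mepce overlapped in PBS libraries.

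The ratio of Rn7sk to Larp7 counts was 1042, 1100 and 1065 in PBS and 1193, 1511 and 1225 in LPS replicates 1 to 3. The shift was the smallest of the 5, at 1.22-fold, with LPS replicate 2 highest. Leaving out each library in turn kept its log2 difference between 0.18 and 0.35.

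**Figure D3:**
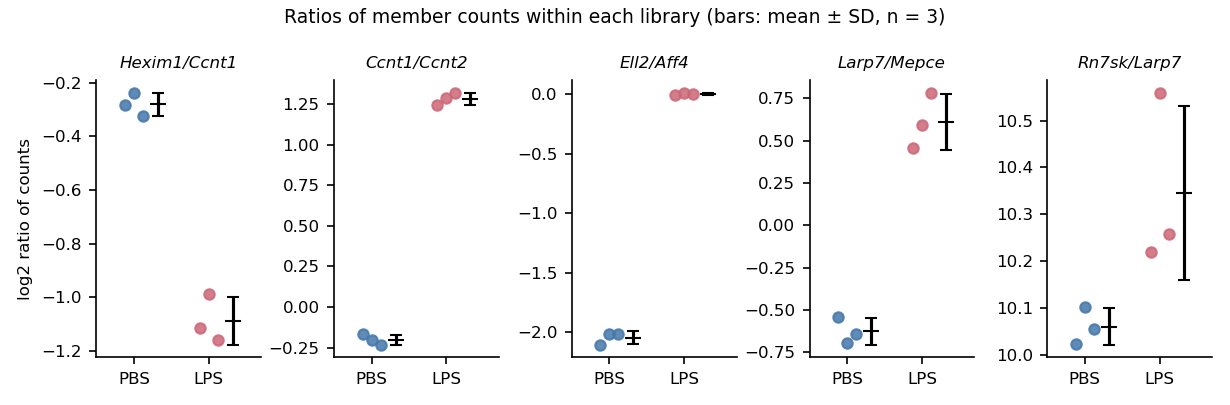
Log2 ratio of the counts of 5 pairs of members within each library (vertical axes separate for each pair and not from 0) in 3 PBS (blue) and 3 LPS (red) libraries, with the mean ± SD beside the points. All 5 pairs separate the groups, with Hexim1 over Ccnt1 lower and the other 4 higher in LPS.

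Levels of different members were compared as normalized CPM per kb of annotated exon. In PBS libraries Rn7sk was at 48779 ± 435 (SD, n = 3), more than any protein gene by over 3 orders of magnitude. Cdk9 followed at 19.0 ± 0.441, ahead of Hexim1 at 15.7 ± 0.295 and Aff4 at 13.8 ± 0.365. Ccnt1 (7.27 ± 0.114) was next. Below it, Mepce (6.57), Larp7 (6.39) and Ccnt2 (6.20) formed a run in which neighbours did not differ beyond their spread. Ell2 was the lowest member in PBS libraries, at 4.60 ± 0.198.

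In LPS libraries Ell2 was the highest of the protein genes, at 39.4 ± 1.46 normalized CPM per kb, with Rn7sk at 71498 ± 6751. Aff4 followed at 28.7 ± 1.16, Hexim1 at 20.6 ± 0.777, Ccnt1 at 16.8 ± 0.427 and Cdk9 at 14.0 ± 0.303. Cdk9, which led the protein genes in PBS, was thus below Ccnt1 in LPS libraries. Larp7 (7.66), Ccnt2 (5.11) and Mepce (3.36) were the lowest, and no neighbours in this order overlapped. Lengths matter here, since with the longest annotated transcript in place of all exons Ccnt1 and Hexim1 changed places in LPS and overlapped, and the ranges of Larp7 and Ccnt2 overlapped too. With those lengths, in PBS Aff4 stood above Hexim1, Ccnt2 above Ccnt1, and Ell2 above Mepce and Larp7.

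**Figure D4:**
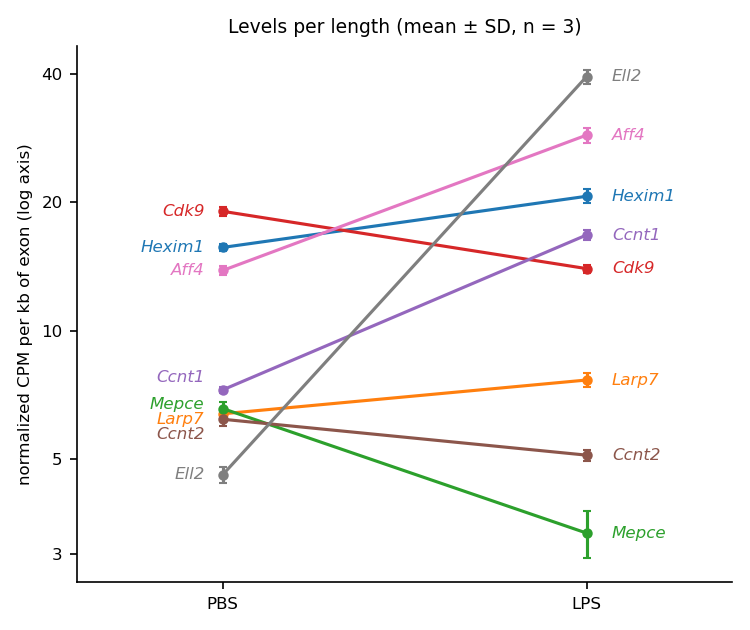
Mean ± SD (n = 3) of normalized CPM per kb of exon (log axis) in PBS and LPS libraries for the 8 protein genes, joined by lines. Ell2 goes from the lowest level, 4.60, to the highest, 39.4, and Cdk9 from the highest, 19.0, to a level below Ccnt1. Rn7sk is off this scale and left out.

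The promoter sequences of the members were searched because members of one system moved in opposite directions. RefSeq promoters on GRCm38.p6 were matched for 7 of the 9 members, all except Rn7sk and Mepce, and the 250 bases before the start were searched on both strands for 7 motifs. The cyclic AMP response element (CRE, TGACGTCA) was found in 1.55% of 32851 promoters and in those of Ell2 and Larp7. It is shown for both in capitals, with 11 bases on either side, on the strand of the gene, at chr13:75707275-75707304 (plus strand) for Ell2, from base -198 relative to the start, and at chr3:127553452-127553481 (minus strand) for Larp7, from base -121. Ell2 rose most and Larp7 least of the members that were higher in LPS.
Ell2 CRE: aagacgagacaTGACGTCAgataagattaa
Larp7 CRE: gccaacttaagTGACGTCAtcaagcaggga

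The E box CACGTG, present in 6.02% of promoters, occurred only in that of Aff4 among the 7. That promoter, at chr11:53350517-53350766 on the plus strand, overlaps no gene in GENCODE M21 and is printed 5′ to 3′ because Aff4 was 1 of the 3 members that rose past both criteria and held none of the other 6 motifs. The RefSeq start, at base 53350767, lies before the GENCODE M21 start of Aff4 at 53350833. The 50 bases after that RefSeq start were found in 0 GENCODE transcripts of Aff4. The E box, at base -52 from the RefSeq start, is in capitals.
Aff4: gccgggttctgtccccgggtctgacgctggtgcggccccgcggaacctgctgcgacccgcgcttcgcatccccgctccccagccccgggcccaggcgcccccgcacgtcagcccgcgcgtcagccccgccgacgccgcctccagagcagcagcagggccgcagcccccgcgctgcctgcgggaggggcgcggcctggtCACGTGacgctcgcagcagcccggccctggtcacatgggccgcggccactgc

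The GC box GGGCGG was in 6 of the 7 promoters (all but Aff4) and in 32.7% of all promoters, and CCAAT was in 5 of the 7 (Ccnt2, Cdk9, Ell2, Hexim1 and Larp7) and in 33.8%. In the Ccnt2 promoter a CCAAT match on the minus strand and a GC box share a base. AP-1 sites (TGANTCA, in 6.75% of promoters), NF-kB sites (GGG and TTTCC with any 2 bases between them, in 1.41%) and TATA boxes (TATAAA, in 12.4%) were found in 0 of the 7. Only these exact letters were searched, so variants such as the TATATAAG in the Hexim1 window were not counted as TATA boxes. A match describes letters in this window and not a bound site. The windows of Ell2, Ccnt1 and Cdk9 lie wholly within exons annotated in GENCODE M21, those of longer transcripts of the same genes and, for Ccnt1 and Cdk9, of the antisense and microRNA genes named above. In the Ccnt2 window 165 of the 250 bases lie in exons of 2900009J06Rik, in the Larp7 window 111 lie in exons of Zgrf1, and in the Hexim1 window 94 lie in the exon of Hexim1 itself.

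Beside the members, 49 other genes of the pathway were examined, of which 48 were tested. In edgeR's quasi-likelihood test 20 were higher in LPS, 17 were lower and 11 did not pass an adjusted p of 0.05, where 32.9% of tested genes were higher and 34.9% lower. Their median log2 fold change was 0.03, against -0.01 over all tested genes. Past both criteria, 2 rose (Paf1 and Aff1) and 3 fell (Zc3h8, Med26 and Nelfa), smaller shares of the 48 than the 10.5% of all tested genes that rose and the 10.4% that fell. With library size alone 0 of the 48 rose and 6 fell past both criteria, where 1213 of the 15687 tested genes rose and 2964 fell.

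Among 14 partners of 7SK and P-TEFb, 7 were higher, 6 were lower and 1 did not pass. Hexim2, the paralogue of Hexim1, had 119, 108 and 117 counts in PBS and 44, 65 and 65 in LPS replicates 1 to 3. Its log2 fold change was -0.51 (SE 0.16; edgeR adjusted p = 0.00793), opposite in sign to that of Hexim1 with TMM, and -0.35 (edgeR adjusted p = 0.0578) without LPS replicate 1, so the call rested on that library.

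Of 10 tested genes of the super and little elongation complexes, 4 were higher, 5 were lower and 1 did not pass. Aff1, a scaffold related to Aff4, had 131.9, 127.5 and 129.2 normalized CPM in PBS and 272.8, 276.8 and 276.9 in LPS replicates 1 to 3. Its log2 fold change of 1.09 (SE 0.03; edgeR adjusted p = 1.32e-15) stood beside that of 1.05 for Aff4. Ell, the founding member of the family of Ell2, had 21.1, 21.8 and 20.0 normalized CPM in PBS and 16.8, 16.9 and 16.9 in LPS replicates. Its log2 fold change was -0.31 (edgeR adjusted p = 7.43e-05), so Ell fell where Ell2 rose. Ell3, with 1 count in LPS replicate 3 and 0 elsewhere, was not tested. Zc3h8, of the little elongation complex, had 137, 172 and 161 counts in PBS and 32, 30 and 44 in LPS replicates, a log2 fold change of -1.68 (SE 0.17; edgeR adjusted p = 8.70e-08).

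Of 18 pausing and elongation factors, 7 were higher, 5 were lower and 6 did not pass. Paf1, a subunit of the PAF complex that travels with the polymerase, had 25.5, 27.1 and 26.4 normalized CPM in PBS and 66.6, 68.6 and 64.7 in LPS replicates 1 to 3, a log2 fold change of 1.34 (SE 0.04; edgeR adjusted p = 5.35e-15). Nelfa, a subunit of the pausing factor NELF, had 19.2, 19.6 and 18.6 in PBS and 9.98, 9.07 and 9.37 in LPS replicates. Its log2 fold change of -1.01 (SE 0.06; edgeR adjusted p = 1.47e-10) barely passed the fold criterion. Nelfa missed that criterion with DESeq2 size factors (-0.995), without PBS replicate 2 (-0.996) and without LPS replicate 2 (-0.983). The gene Nsd2 on the opposite strand shares 1.52% of the Nelfa exons and had a log2 fold change of -0.41 (edgeR adjusted p = 7.25e-08). Med26, the Mediator subunit that recruits the super elongation complex, had a log2 fold change of -1.07 (SE 0.10; edgeR adjusted p = 3.73e-08). The antisense gene Gm17435 shares 12.7% of the Med26 exons and had a log2 fold change of -0.16 (edgeR adjusted p = 0.245). Of the other 6 transcription kinases and cyclins, 2 were higher, 1 was lower and 3 did not pass.

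**Figure D5:**
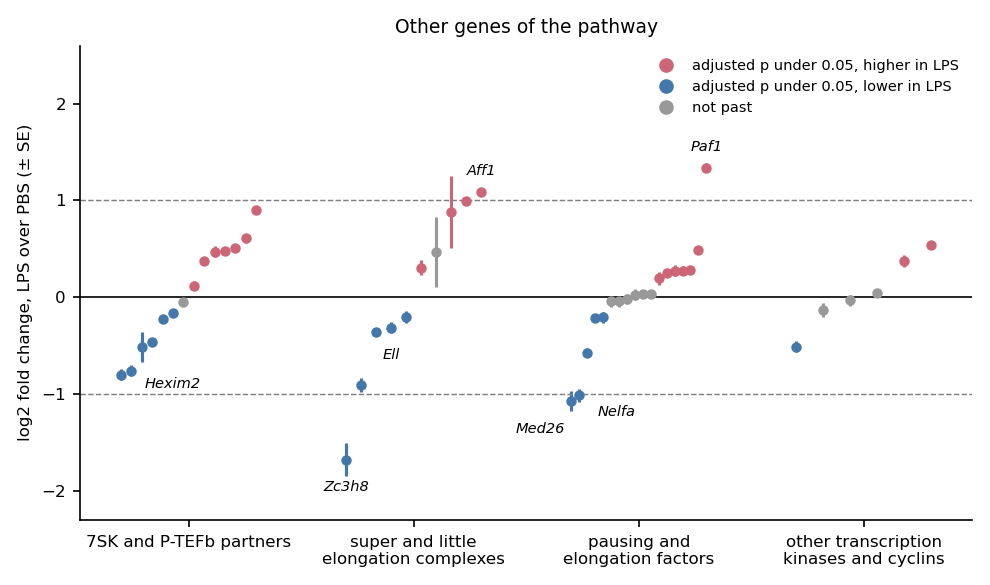
Log2 fold change of LPS over PBS (± SE, 3 libraries a group, TMM scaling) of the 48 tested genes of the pathway outside the 9 members, in 4 groups and ordered within each. Red and blue points have an adjusted p under 0.05 and grey points do not, dashed lines are at 1 and -1, and Paf1 (1.34) and Zc3h8 (-1.68) are the extremes.

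The tested genes nearest to each member over the 6 libraries were found by Euclidean distance of log2 normalized CPM, each relative to its mean in PBS. The nearest to Ell2 were Sod2, a mitochondrial superoxide dismutase, at a distance of 0.118 log2 units, and Gm43011 at 0.122. Those nearest to Ccnt1 were Usp16 (0.0355) and Fnbp1l (0.0441), and those nearest to Aff4 were Ero1l (0.0336) and Dnaja1 (0.0395). Mesd (0.0285) and Mxd4 (0.0399) were nearest to Cdk9, and Rprd2 (0.0250) and Tent5a (0.0406) to Ccnt2. For the members of the 7SK particle they were Sntb1 and Fyn for Rn7sk, Ecm1 and Slc35e4 for Hexim1, Rapgef5 and Gpr137b-ps for Larp7, and Exoc8 and Gm19391 for Mepce. The lists for Larp7 and Mepce are loose, since 52 and 51 genes lay within 2 times the distance of the first neighbour. No member was among the nearest genes of another.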

How the data were processed

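RNA-seq libraries of BMDM total RNA, 3 with PBS and 3 with LPS for 1 h, were grouped by the labels. The authors aligned 101 bp paired-end reads to GRCm38 with HISAT2 2.1.0, counted them with featureCounts 2.0.0 and deposited raw counts per gene. The annotation release, strand setting and handling of multi-mapping reads are not given in the sources used here. Of 55335 identifiers, 55154 matched GENCODE M21 without the version suffix and 181 had no symbol.

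Counts were tested with edgeR 4.0.16 in R 4.3.3 (filterByExpr, TMM, quasi-likelihood test, Benjamini-Hochberg adjustment over 15687 genes). Both criteria means a log2 fold change above 1 or below -1 with an adjusted p under 0.05. SEs come from the F statistic. Ratios used a pseudocount of 0.5, and distances a prior count of 2. Copies of Rn7sk were found with blastn 2.17.0. The fit was tested on simulated counts.

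The members, the lists and the tests were chosen with earlier results of these data known. All 9 members were named whatever their values. Hexim2, Aff1 and Ell were always named (1 further gene of that rule is not reported here), as was every other pathway gene past both criteria and the 2 genes nearest to each member. The labels have a batch field that equals the replicate number, which alone does not show that libraries were paired across groups. Deviations of same-numbered libraries correlated at -0.0139, 0.0822 and 0.0387, and those of unlike numbers at between -0.0817 and 0.0446. The main model had no term for the batch.

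Alternatives were other scalings (DESeq2 size factors, library size alone, upper quartile, without the 10 highest genes), filters (none beyond 1 count, or 10 counts in every library), DESeq2 1.42.0, limma 3.58.1 voom, the replicate block, edgeR's glmTreat at a log2 fold change of 1, the longest transcript as length, and leaving out each library.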

Additional observations from a re-analysis of the deposited data

How the results depend on the processing

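Of the members, Rn7sk, Mepce, Cdk9, Ccnt1, Ccnt2, Aff4 and Ell2 kept their direction under every alternative run. With library size alone Hexim1 (-0.0069) and Larp7 (-0.14) turned negative, and members past both criteria were 1 higher (Ell2) and 1 lower (Mepce). The other pathway genes then had 0 higher and 6 lower past both criteria, where 1213 of the 15687 tested genes rose and 2964 fell. By adjusted p they had 8 higher and 32 lower, where 12691 of all tested genes passed in either direction. With upper quartile scaling 1 member (Mepce) was lower past both criteria, where 1975 of all tested genes were. There 1 other pathway gene was higher past both, where 1467 of all tested genes were. By adjusted p 16 other pathway genes were higher and 26 lower, where 10973 of the 15687 tested genes passed in either direction. Neither all-gene count by adjusted p, 12691 or 10973, was split by direction. These shifts come with the median shift of all genes under those scalings. With edgeR's glmTreat, which tests for a change above 1 on the log2 scale, Ccnt1 and Ell2 passed among the members. Among the other pathway genes 2 were higher (Paf1 and Aff1) and 1 was lower (Zc3h8). Of all tested genes glmTreat called 1332 higher and 922 lower. With the longest transcript as length, 2 neighbouring pairs overlapped in LPS.

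Leaving out each library in turn, the number of members lower past both criteria ranged from 0 to 1 (1 without PBS replicate 1 or LPS replicate 1), with 3 higher each time. Other pathway genes higher past both criteria ranged from 2 to 4 (4 without PBS replicate 1), and those lower from 2 to 3. Of the 15930 to 16134 genes tested in these runs, 1666 to 1764 rose and 1635 to 1711 fell past both criteria. Overlapping neighbours in the PBS order ranged from 1 to 2. With the replicate block, which groups libraries by batch number, 3 members were higher and 0 lower past both criteria. Of all 15687 tested genes 1652 rose and 1624 fell past both criteria with that block. Ell2 was at 3.10 and Mepce at -0.97, and the block changed no call of a member or of another named pathway gene. For ratios, 0.1 is the lowest exact permutation p that 3 libraries against 3 allow.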
